A study of Oncorhynchus masou masou with 2 samples.

Results

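The contigs described here are the long granulosa contigs with a lower level in the forskolin library than in the control library. A contig is an assembled stretch of transcript. Members were chosen by their measured read counts in these same 2 libraries, as contigs of at least 500 bases with 20 or more summed reads from the pair of libraries and a forskolin-to-control ratio of 0.5 or less. The ratio compares counts over library totals, with 0.5 added to each count. The rule found 294 contigs among 1931 long contigs and 97645 contigs in all. The direction and size of the difference follow from that choice and are given as a description.

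Granulosa cells form the inner somatic layer of the ovarian follicle, next to the oocyte. Forskolin, a diterpene from a plant, switches on adenylyl cyclase. Cyclic AMP then rises and activates protein kinase A, the route by which gonadotropin receptors act on granulosa cells. In salmonid follicles, gonadotropin acting through this route shifts granulosa steroid synthesis towards the maturation-inducing hormone, the progestin that restarts meiosis of the oocyte.

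Messenger RNA of granulosa layers of masu salmon (Oncorhynchus masou masou) was sequenced from 1 control library, labelled as having no agent, and 1 library labelled as incubated with forskolin. The sources used here give no genotype, age, forskolin dose, incubation time or number of fish for either library. Counted reads came to 4746085 with no agent and 4327458 with forskolin. With 1 library per group no difference has a replicate check, and no test across conditions was made. All intervals are exact 95% intervals computed from read counts, and they cover counting error only. PCR copies of a molecule cannot be told from separate molecules without identifiers, so the intervals may be too narrow. The contig names hold a class and a number, and 0 of 97645 were found in the RefSeq gene table of this species, so the granulosa label could not be checked against marker genes and no contig is given a gene name or a role. A transcript can be split over several contigs, so numbers of contigs are not numbers of genes. In whole tissue layers, fewer cells of a type and less RNA per cell cannot be told apart.

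The 294 members made up 15.2% of the 1931 long contigs. Among all 56901 contigs with at least 20 summed reads, of any length, 17.8% had a ratio of 0.5 or less. The share among long contigs was thus somewhat below that of the whole list. That list pools contig classes of unlike length, and within each block of mixed contigs described below the order was the opposite. In the other direction, 200 long contigs, or 10.4%, had a ratio of 2 or more. The 1437 remaining long contigs lay within 2-fold. The median log2 ratio over all long contigs was -0.19, with quartiles of -0.66 and 0.27.

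Together the members took 4.42% of the reads of the control library (4.41 to 4.44%) and 1.35% of those of the forskolin library (1.34 to 1.36%). Their summed level in the forskolin library was 0.305 of that in the control library, in reads per 1000000 counted reads (RPM). All long contigs together took similar shares, 24.4% of control reads and 25.1% of forskolin reads. The summed gap over the members was 30751 RPM, and the 53 of the 294 contigs with the largest gaps made up at least 50% of it.

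Scaling moved the edge of the set. TMM factors (trimmed mean of M-values) from all contigs shifted every log2 ratio by 0.20, and 224 of the members then still had a ratio of 0.5 or less. With library totals 59.5% of the long contigs past 2-fold were lower, and with TMM factors 48.8%, with 235 higher. The median log2 ratio of all long contigs turned from -0.19 to 0.01 with those factors. Such a constant leaves the order of the contigs as it was. The surplus of lower over higher contigs at 2-fold was seen with library totals, TMM factors from mixed contigs and upper-quartile scaling but not with TMM factors from all or from long contigs. All ratios below use library totals.

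Most members lay not far beyond the threshold. The median member was 2.89-fold lower with forskolin, with quartiles of 2.31-fold and 4.28-fold. Of the 294, 156 (53.1%) were 2 to under 3-fold lower and 51 (17.3%) were 3 to under 4-fold lower. A further 62 (21.1%) were 4 to under 8-fold lower, and 25 (8.50%) at least 8-fold. At 4-fold the members numbered 87, or 4.51% of long contigs, against 113 long contigs at least 4-fold higher. At 8-fold they numbered 25, or 1.29% of long contigs, against 41 higher. The far tail thus held fewer lower than higher contigs, the opposite of the order at 2-fold. At 8-fold, contigs in the singlet classes, named for 1 library, made up 8 of the 25 lower and 17 of the 41 higher. Among long mixed contigs alone the order was the same, with 17 lower and 24 higher at 8-fold, and 75 and 95 at 4-fold. With the 4 other scalings run, 60 to 74 members were past 4-fold and 17 to 22 past 8-fold.

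No long contig was lost to the minimum of reads, since the lowest summed count among them was 136. Members had between 99 and 6171 control reads, with a median of 458.5, and between 6 and 2011 forskolin reads, with a median of 131.5. None of the members was without a forskolin read, and 9 had fewer than 20. The ratio interval lay wholly at or below 0.5 for 209 members, at or below 0.25 for 53, and wholly beyond 8-fold for 15. For the other 85 members the interval reached above 0.5, and for 144 long contigs outside the set it reached down to 0.5. Counting error alone therefore leaves the edge of the set uncertain in both directions.

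The contigs at the threshold illustrate this. Just inside lay a contig of 526 bases with 332 control and 151 forskolin reads, a ratio of 0.4997 (0.409 to 0.606), one of 529 bases with 275 and 125 reads, a ratio of 0.4996 (0.400 to 0.618), and one of 1846 bases with 1267 and 575 reads, a ratio of 0.498 (0.450 to 0.550). Just outside lay contigs of 636 bases (219 and 100 reads, ratio 0.5022), 1835 bases (1431 and 655 reads, ratio 0.5022) and 842 bases (756 and 347 reads, ratio 0.504). All 6 intervals spanned 0.5.

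The 12 members with the lowest ratios had mostly high levels in the control library and lay at the bottom of the list in the forskolin library. They were 511 to 1358 bases long and had 49.1 to 344 RPM in controls and 1.39 to 15.7 RPM with forskolin, 12.5 to 80.6-fold lower. All 12 had intervals wholly below a ratio of 0.5. All 12 also kept a ratio of 0.5 or less under the 4 other scalings run. This is no check of them, since the largest shift in log2 ratio, 0.20, could not have moved any past 0.5. Per length, in RPM per 1000 bases (RPKM), their forskolin levels ranked between 1881 and 1931 of the 1931 long contigs, and their control levels between 47 and 1223.

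The lowest ratio belonged to cont-singlet_contig_034743, 602 bases long, whose name places it in the control singlet class. It had 1634 control reads, or 344 RPM (328 to 361), and 18 forskolin reads, or 4.16 RPM (2.47 to 6.57). That was 80.6-fold lower (52.2 to 140.01). Per length its control level ranked 47 of the 1931 long contigs and its forskolin level 1925.

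A mixed contig of 596 bases was nearly as low. It had 1359 control reads (286 RPM) and 15 forskolin reads (3.47 RPM), 79.97-fold lower (49.9 to 148). The third, a control singlet of 864 bases, had 1438 control reads (303 RPM) and 18 forskolin reads (4.16 RPM), 70.9-fold lower (45.9 to 123). The intervals of these 3 overlap, so their order is not resolved.

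Below them came a control singlet of 717 bases with 586 control and 12 forskolin reads, 42.8-fold lower (25.3 to 86.7). A mixed contig of 554 bases had 233 control reads and 6 forskolin reads, the fewest of any member, and was 32.8-fold lower (16.02 to 97.5). These 5 were the members at least 32-fold lower, and 3 of them were control singlets.

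The only contig over 1000 bases among the 12 was a mixed contig of 1358 bases. It had 1548 control reads (326 RPM) and 68 forskolin reads (15.7 RPM), 20.6-fold lower (16.3 to 26.9). A control singlet of 517 bases, with 482 and 19 reads, was 22.6-fold lower (14.7 to 38.8). The last 5 of the 12 were mixed contigs of 511 to 720 bases that lay between 12.5 and 15.5-fold lower. Their control levels of 114 to 147 RPM and forskolin levels of 8.55 to 11.6 RPM were close to one another.

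**Figure D1:**
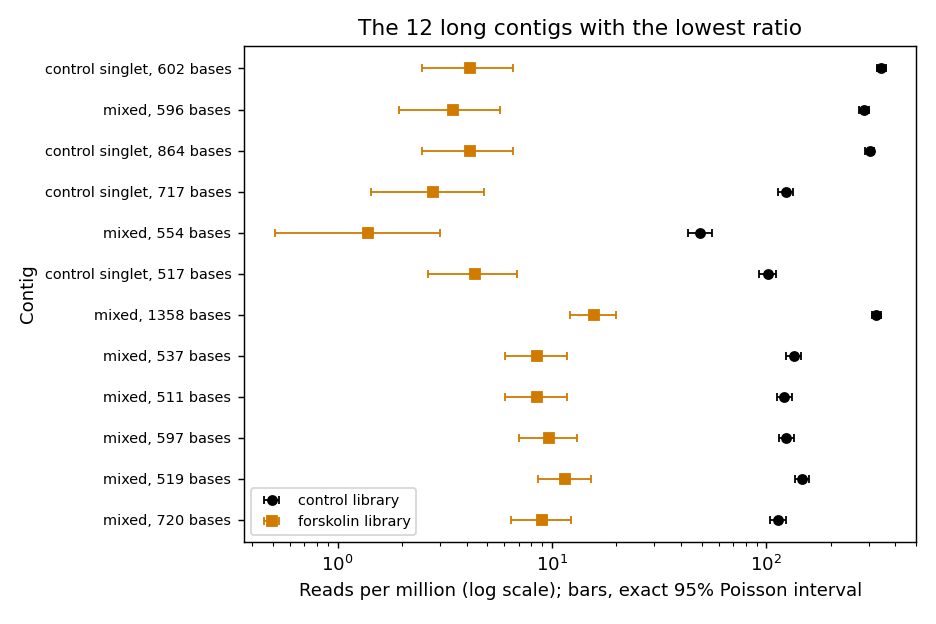
Levels of the 12 members with the lowest forskolin-to-control ratio, in RPM on a log scale, with contigs named by class and length and ordered from the lowest ratio at the top. Circles are the control library, squares the forskolin library, and bars exact 95% Poisson intervals of the counts. Control levels lie between 49.1 and 344 RPM and forskolin levels between 1.39 and 15.7 RPM, with no overlap of the intervals in any contig.

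The 12 members with the most control reads were other contigs, and none was in both groups of 12. A ranking by reads not divided by length favours long contigs. The 12 with the most control reads were longer, 632 to 2324 bases, and all were mixed contigs. Their levels were 483 to 1300.2 RPM without agent and 55.2 to 465 RPM with forskolin, 2.04 to 8.74-fold lower. They took 0.849% of the control library and 0.255% of the forskolin library, and made up 19.3% of the summed gap of the members.

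The highest, cont-fors-mixed_contig_06761, was 1146 bases long. It had 6171 control reads, or 1300.2 RPM (1268 to 1333), and 2011 forskolin reads, or 465 RPM (445 to 485). The level with forskolin was 2.80-fold lower (2.66 to 2.94). Per length it ranked 8 of the 1931 long contigs without agent and 114 with forskolin, so it was still a well-covered contig there.

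The next, 697 bases long, had the highest control level per length of all 1931 long contigs, at 1504 RPKM. It had 4974 control reads (1048 RPM) and 1341 forskolin reads (310 RPM), 3.38-fold lower (3.18 to 3.59). In the forskolin library it ranked 94, at 445 RPKM. Among long contigs, the one with the most reads per base in the control library was thus a member.

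A contig of 1859 bases had 3867 control reads (815 RPM) and 1106 forskolin reads (256 RPM), 3.19-fold lower (2.98 to 3.41). One of 979 bases had 3408 control reads (718 RPM) and 743 forskolin reads (172 RPM), 4.18-fold lower (3.86 to 4.53). Both remained among the first 620 long contigs by forskolin RPKM.

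The largest folds among these abundant contigs came further down the list. A contig of 1994 bases had 3287 control reads (693 RPM) and 456 forskolin reads (105 RPM), 6.57-fold lower (5.96 to 7.26). One of 1604 bases had 3098 control reads (653 RPM) and 368 forskolin reads (85.0 RPM), 7.67-fold lower (6.89 to 8.58). One of 632 bases had 2294 control reads (483 RPM) and 239 forskolin reads (55.2 RPM), 8.74-fold lower (7.66 to 10.04). Per length the last ranked 24 of the long contigs without agent and 1068 with forskolin.

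The remaining 5 were 2.04 to 3.76-fold lower. The 2324-base contig, the longest of all members, had 514 RPM without agent and 137 RPM with forskolin, 3.76-fold lower (3.43 to 4.12). The contig of 2211 bases had 572 and 204 RPM, 2.81-fold lower (2.60 to 3.03). The contig of 1271 bases had 582 and 244 RPM, 2.39-fold lower (2.23 to 2.57). The 1453-base contig had 516 and 231 RPM and was 2.23-fold lower (2.07 to 2.40), while the 736-base contig had 593 and 290 RPM and was 2.04-fold lower (1.91 to 2.18). With TMM factors from all contigs 10 of the 12 kept a ratio of 0.5 or less, and the interval of the 736-base contig reached above 0.5 already with library totals.

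**Figure D2:**
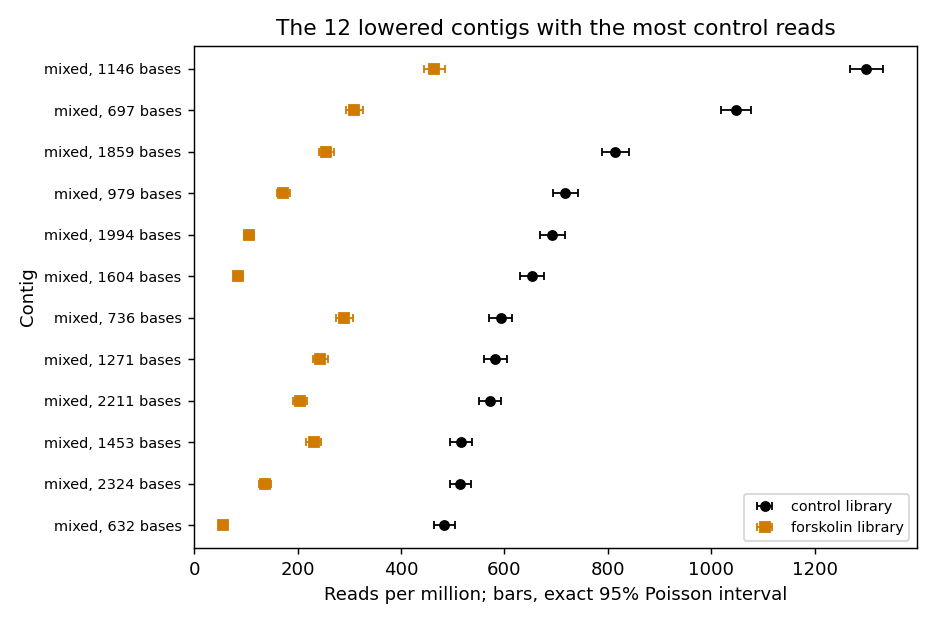
Levels of the 12 members with the most control reads, in RPM on a linear scale from 0, with contigs named by class and length and ordered by control level. Circles are the control library, squares the forskolin library, and bars exact 95% Poisson intervals of the counts. Every contig is lower in the forskolin library, from 55.2 to 465 RPM against 483 to 1300.2 RPM.

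Of the 5 longest members, 3 of 1994, 2211 and 2324 bases are described above. The contig of 2300 bases had 2163 control reads (456 RPM) and 884 forskolin reads (204 RPM), 2.23-fold lower (2.06 to 2.42). The contig of 1900 bases had 1382 control reads (291 RPM) and 409 forskolin reads (94.5 RPM), 3.08-fold lower (2.76 to 3.45). The longest members thus had folds within the range of the shorter ones.

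With all classes pooled, length did not separate members from other long contigs. Shares by length within each block of mixed contigs are given below. The median length was 650 bases in members, 652 in contigs within 2-fold and 654 in contigs at least 2-fold higher. From 500 to under 600 bases 15.2% of long contigs were members, from 600 to under 750 bases 14.9%, from 750 to under 1000 bases 14.8%, from 1000 to under 1500 bases 16.9%, and from 1500 bases 14.7%. Among the members, length and log2 ratio had a Spearman correlation of -0.05 over 294 contigs that share both libraries. Contigs of 2000 bases or more numbered 32, of which 3 were members.

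The share of members was lower among the contigs with the most reads. Among the 258 long contigs with 2000 or more summed reads, 24 (9.30%) had a ratio of 0.5 or less and 39 (15.1%) a ratio of 2 or more. Between 200 and under 500 reads the order was the opposite, with 109 lower and 47 higher of 642. Between 1000 and under 2000 reads 61 were lower and 48 higher of 384, which TMM factors from all contigs turned to 50 and 56. At 2000 or more reads more contigs were higher under all scalings run. The other scalings all raise every log2 ratio, so they could not have turned that order. Summed reads include both sides of the ratio, so they are not independent of it.

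Levels per length show how far members moved within the list. Their median was 140.2 RPKM without agent and 43.5 RPKM with forskolin, against 109.6 and 97.1 RPKM over all long contigs. Of the 193 long contigs with the highest control RPKM 48 were members, and of the 193 with the highest forskolin RPKM 4 were. At the other end, 6 members were among the 193 lowest without agent and 130 among the 193 lowest in the forskolin library. The 130 made up the greater part of the least covered long contigs of the forskolin library. Both counts are sides of the ratio used to choose members. The higher control median, the lower forskolin median and the ranks at both ends therefore follow in part from that choice.

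Within the set, control level and fold were related. Members were split into 4 groups of 73 or 74 by control RPKM. The median fold was 2.66 in the group with the lowest levels, then 2.71 and 2.86, and 3.91 in the group with the highest, which held 14 of the 25 contigs at least 8-fold lower. The lowest group held 6 of the 25, all with control levels of at most 92.3 RPKM, and 8 of the 13 control singlets. Across members, control and forskolin RPKM had a Spearman correlation of 0.68, and across all 1931 long contigs 0.49. The control count is one side of the ratio, a set cut by ratio is bound to correlate in this way, and the contigs share both libraries.

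The class in the contig name went with the size of the difference. Mixed contigs, whose names carry both libraries, made up 281 of the members, and control singlets the other 13. None of the 20 long forskolin singlets was a member. Control singlets were rare among long contigs, at 16 of 1931, and 13 of these 16 were members. All 13 stayed members with TMM factors, but the largest shift in log2 ratio, 0.20, could not have moved any of them out. They were 2.86 to 80.6-fold lower with a median of 8.94-fold, and 8 of them were among the 25 members at least 8-fold lower. A class named for the control library is not independent evidence of a higher control level, and the sources used here do not say how the classes were built.

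The 13 singlet members were otherwise of low level. Apart from the 4 described above, their control levels lay between 30.6 and 52.9 RPM. Their forskolin levels ran from 2.77 RPM, in a contig of 504 bases with 145 control and 12 forskolin reads, to 16.9 RPM, in one of 847 bases with 230 and 73 reads. The 3 long control singlets outside the set had ratios of 0.748 (0.701 to 0.797), 1.10 (0.978 to 1.23) and 0.948 (0.828 to 1.08), so the first was lower and the intervals of the other two held 1. They were 1339, 655 and 681 bases long, with control and forskolin levels of 491 and 367 RPM, 124 and 136 RPM, and 99.03 and 93.8 RPM. The singlet name thus did not by itself mean few forskolin reads.

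The number in the name of mixed contigs also went with membership, which the rule did not use. Along the 40004 numbered mixed contigs with counts, summed reads and lengths declined from low to high numbers, broke upward once, and declined again. Straight lines fitted to log2(summed reads + 1) on either side put the break at number 21724, a position that used no ratio. The 100 contigs before it had a median of 18 summed reads and 97.5 bases, and the 100 from it on a median of 271 reads and 186 bases. The median log2 ratio of these 100 contigs of any length was 0.39 before the break and 0.19 from it on. The 2 blocks of numbers were set after the data were seen, and the sources used here do not say what the numbering stands for.

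Members were more frequent in the block of lower numbers. There 231 of 1220 long mixed contigs (18.9%) were members and 59 (4.84%) were at least 2-fold higher. In the block of higher numbers 50 of 675 (7.41%) were members and 123 (18.2%) were at least 2-fold higher. The median log2 ratio of long contigs was -0.33 in the lower and 0.06 in the higher block. With TMM factors from all contigs members were 14.4% and 5.19% of the blocks. Those factors add the same constant to every log2 ratio in both blocks, so they are no check of the gap between the blocks. The 100 contigs next to the break on either side, of any length, had the opposite order of median log2 ratios. No test of this gap was made, and its cause was not tested.

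Lengths and depths of the blocks were close. Median lengths of long contigs were 656.5 and 647 bases, and median summed reads 668.5 and 650. In long contigs of 100 to under 500 summed reads the shares lowered were 22.3% and 7.41%, at 500 to under 1000 reads 17.8% and 7.88%, and at 1000 or more 16.6% and 6.99%. By length they were 18.3% and 8.55% at 500 to under 600 bases and 18.7% and 6.99% at 600 to under 750. At 750 to under 1000 bases they were 17.8% and 6.54%, and at 1000 bases or more 22.0% and 6.19%. The share was larger in the lower block in each of these bands. Summed reads are not independent of the ratio, and whether length or depth bears on the gap was not tested.

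At least 8-fold lower were 17 of the 1220 long mixed contigs of the lower block and 0 of the 675 of the higher. The lowest ratio among long contigs of the higher block was that of the 1604-base contig, 7.67-fold lower (6.89 to 8.58). Its interval reached past 8-fold. Among mixed contigs of any length with at least 20 summed reads, 75 of 19635 and 12 of 16511 were at least 8-fold lower. Over all members the median fold was 2.90 in the 231 of the lower block and 2.65 in the 50 of the higher. Of these, 67 and 8 were at least 4-fold lower. Of the 12 members with the most control reads 3 were in the higher block, those of 697, 1604 and 2324 bases. The share of members also varied within blocks, from 26.4% of the 299 long contigs numbered up to 2000 to 3.23% of the 31 numbered 18001 to 20000. It was 3.48% of the 201 numbered 22001 to 24000 and 27.3% of the 33 numbered 32001 to 34000, so the higher block was not uniformly low.

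**Figure D3:**
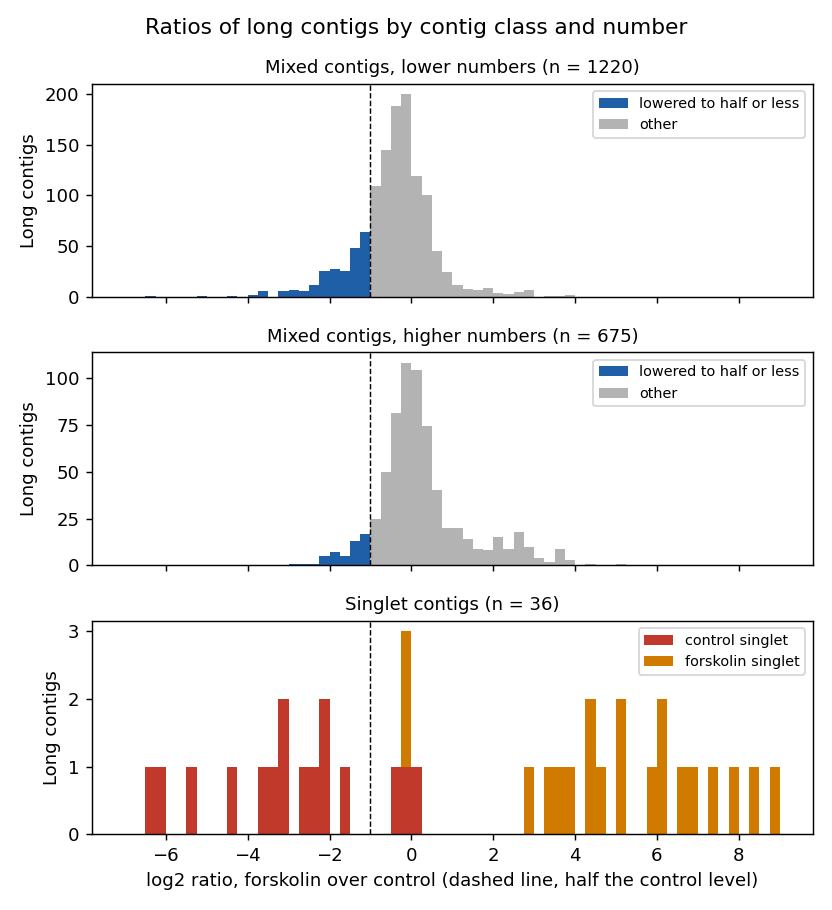
Numbers of long contigs by log2 forskolin-to-control ratio in bins of 0.25, for mixed contigs with lower numbers (top, n = 1220), mixed contigs with higher numbers (middle, n = 675) and singlet contigs (bottom, n = 36), with vertical axes of their own. Blue marks contigs with a ratio of 0.5 or less, left of the dashed line. Lower-numbered contigs have a tail to the left, higher-numbered ones a tail to the right, and 13 of 16 control singlets lie left of the line.

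Long contigs were compared with shorter ones to see whether the lower share was particular to length. Among contigs with at least 20 summed reads, 19.5% of those of 150 to under 200 bases had a ratio of 0.5 or less, against 14.2% under 100 bases and 18.6% at 100 to under 150. The share was 17.5% at 200 to under 300, 15.9% at 300 to under 500, 15.1% at 500 to under 750 and 15.5% from 750 bases. The shares at 500 bases or more were close to that at 300 to under 500, and over all lengths the share was highest at 150 to under 200 bases. Shorter contigs have fewer reads and hence wider counting error, so these shares are not at matched precision. The bands also pool the classes, and few singlets were long. Among mixed contigs of any length, 14.8% in the lower-numbered block and 5.81% in the higher-numbered block had a ratio of 0.5 or less. Among long mixed contigs these shares were larger, at 18.9% and 7.41%. No test of these differences was made.

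**Figure D4:**
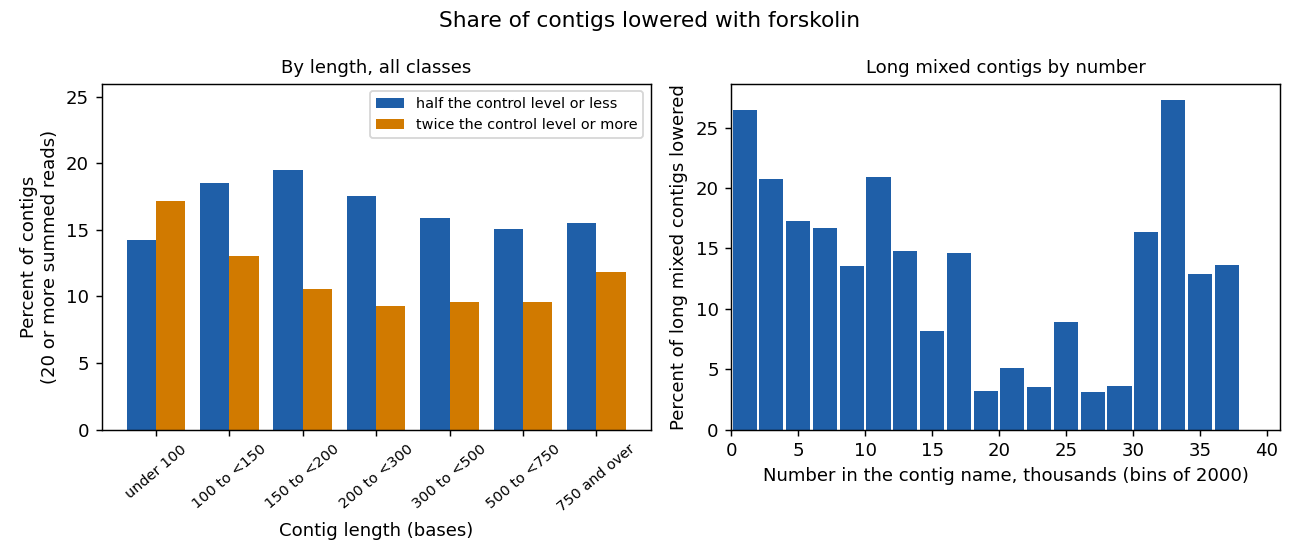
Left, percent of contigs of all classes with at least 20 summed reads that had a forskolin-to-control ratio of 0.5 or less (blue) or of 2 or more (orange), by contig length. Right, percent of long mixed contigs with a ratio of 0.5 or less, by the number in their names in bins of 2000, some of which hold few contigs. The blue bars lie at 15.1% and 15.5% for contigs of 500 to under 750 bases and of 750 bases or more, and the shares by number are 26.4% in the first bin, 3.48% in the bin from 22001 and 27.3% in the bin from 32001, which holds 33 contigs.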

How the data were processed

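Per the labels' protocols, total RNA of granulosa layers was column-purified and made into mRNA sequencing libraries. CASAVA and Bowtie appear in the submitters' processing notes, with neither version nor role. The sources used here do not give the assembler, the read filters or the handling of reads matching several contigs. Per the file headers, the authors deposited each contig's length, its count of reads and its RPM (reads per 1000000 counted reads). Of 97645 contigs, 9 had no count and were left out.

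The ratio was ((forskolin count + 0.5) / total) over ((control count + 0.5) / total), for contigs of at least 500 bases and 20 summed reads. Ratio intervals were exact conditional binomial (Clopper-Pearson), those of shares exact binomial and those of RPM exact Poisson, at 95%. Ratio intervals used counts without the added 0.5, so they belong to a slightly different estimate from the printed ratio, mainly where counts were low. RPKM is RPM per 1000 bases. A count of 0 allows up to 3 counts, 0.632 RPM in the control and 0.693 RPM in the forskolin library. The 1 comparison had 1 library per group and no test. TMM and upper-quartile factors came from edgeR 4.0.16 (R 4.3.3). Other computing used scipy 1.17.1, pandas 2.3.3, numpy 2.4.6 and matplotlib 3.10.9 in Python 3.11.15. The computing of ratios and intervals was tested on simulated Poisson counts. The intervals assume that same model, so the test checks the computing and not whether the intervals suit these libraries.

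Identifiers are printed for the member with the lowest ratio and that with the most control reads. Described by class and length are the 12 lowest ratios, the 12 highest control RPM, the 5 longest, and 3 contigs on either side of the threshold. A few contigs outside this rule (the singlets outside the set and the ends of the singlet range) were chosen after their values were seen. The members and the alternatives were chosen with earlier results of these data known. Gene names were sought in the RefSeq gene table of assembly UVic_Omas_1.1.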

Additional observations from a re-analysis of the deposited data

How the results depend on the processing

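The count of 294 stayed within 1.5 times, at 224 to 291, under TMM factors from all, long or mixed contigs, upper-quartile scaling and pseudocounts of 2 and 5. Mixed contigs alone held 281 of the 294, lower-numbered ones 231 and higher-numbered ones 50. The interval lay wholly at or below 0.5 for 209. These are parts of the same set, so they are no check of the count. The count was 87 at 4-fold, 1057 for lengths of at least 300 and 52 for at least 1000, which by construction are other sizes or sets of contigs. No minimum and a minimum of 100 reads left it at 294, as no long contig was below either. The log2 ratio of the contig with the most control reads was -1.48, and -1.28, -1.30 and -1.39 with TMM factors from all, long and mixed contigs and -1.37 with upper-quartile scaling, which add a constant to every log2 ratio. The median log2 ratio of long contigs, -0.19, became 0.013, -0.0012 and -0.10 with those TMM factors, -0.077 with upper-quartile scaling, -0.18 with a pseudocount of 5, and -0.33 and 0.062 in lower- and higher-numbered mixed contigs. The lowest log2 ratio, -6.33, ranged from -6.02 to -6.24 and stayed within its counting interval. Members at 4-fold took 1.502% of control reads. Factors from mixed contigs and the split by number were chosen after seeing the data. No paired analysis was possible because there was only 1 library on either side. At this depth, counting error does not resolve on which side of 0.5 the ratio lay for the 85 members whose interval reached above 0.5.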

Other observations

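Long mixed contigs with consecutive numbers formed 147 pairs. In 48 of these at least 1 contig was a member and in 9 both were. Members were 14.8% of all 1895 long mixed contigs, and 26.4% of the 299 numbered up to 2000, where long contigs were most numerous. Whether 9 is more than these shares would give was not tested. Whether contigs with adjacent numbers come from 1 transcript was not tested.

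All long contigs had at least 136 summed reads, although the median contig with at least 20 summed reads had 49. Of the 35646 control singlets of any length, 16 had 500 bases or more, and of the 21986 forskolin singlets, 20. Long members are therefore drawn from well-covered contigs, and the shares given for them do not describe the shorter contigs.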
